A study of Homo sapiens with 4 samples.

Results

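H3K4me3 peaks outside protein-coding genes were taken from MCF10A, an immortalised human mammary epithelial cell line that does not form tumours. The members are peaks of the H3K4me3 list on chromosomes 1 to 22 that are at least 1000 and under 8000 bp wide, lie at least 5000 bp from every protein-coding gene record of GRCh38 and hold less than 500 bp of H3K27me3 peaks. Of 67904 deposited H3K4me3 peaks, 6538 (9.63%) met these limits. They were split by overlap of at least 1 bp with a non-coding gene record and with an H3K79me2 peak. A non-coding record is any RNA gene record that is neither protein-coding nor a pseudogene nor an immune receptor segment. Members on pseudogene records alone therefore count as off non-coding records, and members on pseudogene records are also given apart. Members were chosen by their H3K4me3 width, their H3K27me3 overlap and their distance, so these are given as a description.

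Chromatin immunoprecipitation with sequencing was done for 3 histone marks, H3K4me3, H3K79me2 and H3K27me3, with 1 library per mark, and no peak list of the input DNA was used. All cells grew in MEGM, a culture medium for mammary epithelium, to which cholera toxin had been added at 100 ng/ml. Each peak carries a fold, the authors' enrichment over the caller's background, and a −log10 q from the caller. With 1 library per mark no value has an error and no difference has a replicate check, so shares are descriptions of these libraries and no test was run. In the H3K4me3 library, 7 of 8 basal mammary markers had a peak within 1000 bp of a gene end, and TP63, the master regulator of basal epithelia, had its highest peak (9.53-fold) inside the record. Of 3 blood and 2 endothelial markers 0 had one at an end, though PTPRC and PECAM1 had peaks of up to 4.18- and 2.65-fold inside their records. The fibroblast markers COL1A1, COL1A2 and PDGFRB all had peaks at an end, of 9.97-, 1.98- and 3.31-fold. Of the 8 basal markers 6 reached 10-fold at an end, and KRT14 had 7.05-fold, below COL1A1. These markers therefore set basal cells apart from fibroblasts only in part.

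H3K4me3 is laid down by SET1 and MLL complexes at active and poised promoters. H3K79me2 is laid down by DOT1L, which travels with elongating RNA polymerase II, and lies over the first part of transcribed genes. Long non-coding RNAs and miRNA hosts are mostly made by RNA polymerase II, whereas tRNA genes are transcribed by RNA polymerase III.

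The promoters of 4 lncRNA genes whose start lies in a member are shown as examples with few or many CpG dinucleotides and with an H3K79me2 peak or none. They do not stand for all such starts. Their members are all of 14.1-fold or more, whereas 368 of the 635 lncRNA starts in members lie in members under 10-fold. Each line is 250 bases before and 50 after the annotated start (RefSeq, GRCh38.p14), 5′ to 3′ on the gene's strand, with every CpG in capitals. MIR205HG is the host gene of miR-205, MIR34AHG that of miR-34a, and NORAD an abundant cytoplasmic RNA that binds Pumilio proteins. LOC105375456 is an uncharacterised lncRNA record and the leading lncRNA start without H3K79me2 by fold.
MIR205HG, chr1:209428570-209428869, plus strand: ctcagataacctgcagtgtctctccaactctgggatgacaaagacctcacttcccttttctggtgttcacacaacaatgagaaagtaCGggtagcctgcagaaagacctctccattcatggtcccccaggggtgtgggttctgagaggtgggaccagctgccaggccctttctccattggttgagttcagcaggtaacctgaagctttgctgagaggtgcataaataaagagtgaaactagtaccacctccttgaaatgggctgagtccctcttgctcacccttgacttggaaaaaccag
MIR34AHG, chr1:9182289-9182588, minus strand: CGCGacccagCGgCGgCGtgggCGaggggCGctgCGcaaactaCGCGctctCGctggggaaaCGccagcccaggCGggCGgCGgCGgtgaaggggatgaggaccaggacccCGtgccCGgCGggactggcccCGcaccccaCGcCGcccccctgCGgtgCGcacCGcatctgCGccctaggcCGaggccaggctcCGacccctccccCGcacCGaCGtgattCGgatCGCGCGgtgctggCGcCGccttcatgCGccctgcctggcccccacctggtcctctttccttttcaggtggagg
NORAD, chr20:36050911-36051210, minus strand: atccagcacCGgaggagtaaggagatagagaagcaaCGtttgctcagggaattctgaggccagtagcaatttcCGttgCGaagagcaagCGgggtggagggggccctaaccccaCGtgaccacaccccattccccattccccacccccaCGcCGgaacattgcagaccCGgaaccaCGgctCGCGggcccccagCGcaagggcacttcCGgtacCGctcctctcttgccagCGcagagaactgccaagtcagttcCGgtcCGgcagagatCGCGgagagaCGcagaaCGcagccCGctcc
LOC105375456, chr7:112391288-112391587, minus strand: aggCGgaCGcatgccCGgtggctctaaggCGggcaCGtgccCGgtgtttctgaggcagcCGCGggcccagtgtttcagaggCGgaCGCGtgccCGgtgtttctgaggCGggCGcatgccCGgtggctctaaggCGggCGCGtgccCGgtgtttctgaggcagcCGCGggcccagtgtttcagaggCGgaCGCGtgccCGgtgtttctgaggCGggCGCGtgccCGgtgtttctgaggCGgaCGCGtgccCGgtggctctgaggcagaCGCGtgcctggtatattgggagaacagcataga

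The window at MIR205HG holds 1 CpG, with a CpG ratio of observed to expected of 0.0527, and that at MIR34AHG holds 38, with a ratio of 0.905. NORAD holds 23 (0.779) and LOC105375456 holds 35 (1.03), the last in repeated short units that can be read along the line, where placing reads is uncertain. The H3K4me3 members over these starts were strong at all 4, at 21.2-fold for MIR205HG, 20.9-fold for MIR34AHG, 14.1-fold for NORAD and 19-fold for LOC105375456. H3K79me2 peaks covered 5464, 4770 and 4996 bp of the members at MIR205HG, MIR34AHG and NORAD and 0 bp of that at LOC105375456.

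Some mature miRNAs that belong to genes held by members, or whose host gene has a member, are shown as examples. Others, such as those of MIR301B and MIR30A, are not shown. The seed, bases 2 to 8, is in capitals, since the seed decides which mRNAs a miRNA can pair with.
hsa-miR-205-5p: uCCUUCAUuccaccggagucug
hsa-miR-34a-5p: uGGCAGUGucuuagcugguugu
hsa-miR-148a-3p: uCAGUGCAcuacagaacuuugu
hsa-miR-15a-5p: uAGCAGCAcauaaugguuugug
hsa-miR-16-5p: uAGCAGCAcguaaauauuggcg
hsa-miR-130b-3p: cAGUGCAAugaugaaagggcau
hsa-miR-193a-3p: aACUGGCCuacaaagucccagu

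The sequences of hsa-miR-15a-5p and hsa-miR-16-5p share the seed AGCAGCA and are encoded together in an intron of DLEU2. Among the miRNAs shown, the other 5 each have a seed of their own.

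Most members were narrow and weak. Their median width was 1508 bp and their median fold 3.12 (range 1.63 to 27.6). Of the 6538 members, 708 (10.8%) reached 10-fold, against a background of 39.2% of the 27300 peaks of the same chromosomes, width and H3K27me3 limit, members included. A q of 0.05 or below was met by 4575 members (70%; background 79.3%), and a −log10 q of at least 5 by 2150 (32.9%; background 55%). The members' median fold lay close to the 3-fold of the 8653 peaks deep inside protein-coding records, over 5000 bp from an end, and far from the 16.4-fold of the 10064 peaks within 1000 bp of an end of such a record. At the limits, the narrowest member was 1000 bp wide (3.22-fold, on LOC102723753), against 999 bp for the widest peak left out (6.41-fold, 18549 bp from KRT18). The widest member was 7833 bp (4.42-fold, on LOC124902258), against 8174 bp for the narrowest left out on the wide side (13.9-fold, on LINC01970). The nearest member lay 5001 bp from BHLHE41 (9.28-fold), against 4992 bp from TMEM19 for the nearest left out (3.24-fold). H3K27me3 covered up to 489 bp of a member (3.63-fold, on C1GALT1P1), against 506 bp of the first peak left out (3.44-fold, near POU3F2).

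Non-coding records lay under 2406 members (36.8%; background 23.3%), and H3K79me2 overlapped 1351 (20.7%; background 61.9%). The 4 classes held 661 members on a record with H3K79me2, 1745 on a record without it, 690 off records with it and 3442 off records without it. H3K79me2 was thus found at 27.5% of members on non-coding records and at 16.7% of the others. Members on records were also wider and stronger, with medians of 1614 bp and 3.46-fold, against 1453 bp and 3-fold for those off records. At 10-fold or more the shares with H3K79me2 were 59.1% on records and 53.1% off them. With at least 3000 bp as well they were 85.9% and 92.5%, the other way round. Members off non-coding records include 381 on pseudogene records alone. Of these, 115 reached 10-fold and 80% of the 115 had H3K79me2, against 38.2% of the 207 such members on no record. At protein-coding ends 84% of peaks had it, and deep inside protein-coding records 70.7% did. These H3K79me2 peaks were themselves mostly weak: with a q of 0.05 or below asked of them, 456 members (6.97%; background 44.7%) kept an overlap, against 68.7% of peaks at protein-coding ends and 48.9% of those deep inside. The H3K79me2 peaks over members had a median length of 1352 bp and a median fold of 2.22, and 11 of the 1351 members (0.814%) shared theirs with a protein-coding record.

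Among the members the share with H3K79me2 was higher in each higher class of H3K4me3 fold. H3K79me2 overlapped 10.7% of members under 3-fold, 18.6% at 3- to under 5-fold, 31% at 5- to under 10-fold and 56.4% at 10-fold or more. At protein-coding ends the same classes gave 26.9%, 25.7%, 38.4% and 92.1%. In the strongest class the shares also differed by width. With 10-fold or more and at least 3000 bp, 88.4% of 242 members had H3K79me2, against 99% of 5696 peaks at protein-coding ends. Among those of 1500 to under 3000 bp the shares were 49.4% and 83.3%, and among those of 1000 to under 1500 bp 12.9% and 22.5%. Deep inside protein-coding records the share was 67.6% already under 3-fold.

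**Figure D1:**
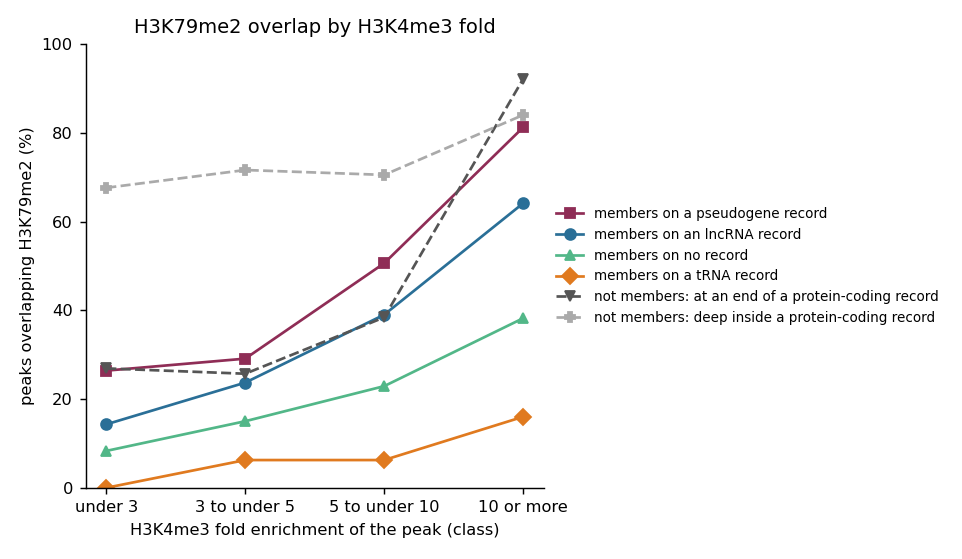
Percent of H3K4me3 peaks overlapping an H3K79me2 peak (y axis) in 4 classes of H3K4me3 fold (x axis), for members by kind of record (solid lines) and for peaks of the same limits at or in protein-coding records (dashed lines). At 10-fold or more, members on pseudogene records reach 81.2% and those on tRNA records 16%, beside 92.1% at protein-coding ends.

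Long non-coding RNAs were the main kind of record, with 2244 members (34.3%; background 21.7%), of which 625 (27.9%) had H3K79me2. The members that held an annotated start were stronger than those that did not. The 532 members that held an lncRNA start had a median of 7.15-fold, and 46.2% had H3K79me2. The 1712 on an lncRNA record with no start of the promoter table had a median of 2.99-fold and 22.1% with H3K79me2. Seen from the genes, 635 of 6575 lncRNA starts at least 5000 bp from protein-coding records (9.66%) lay in a member.

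**Figure D2:**
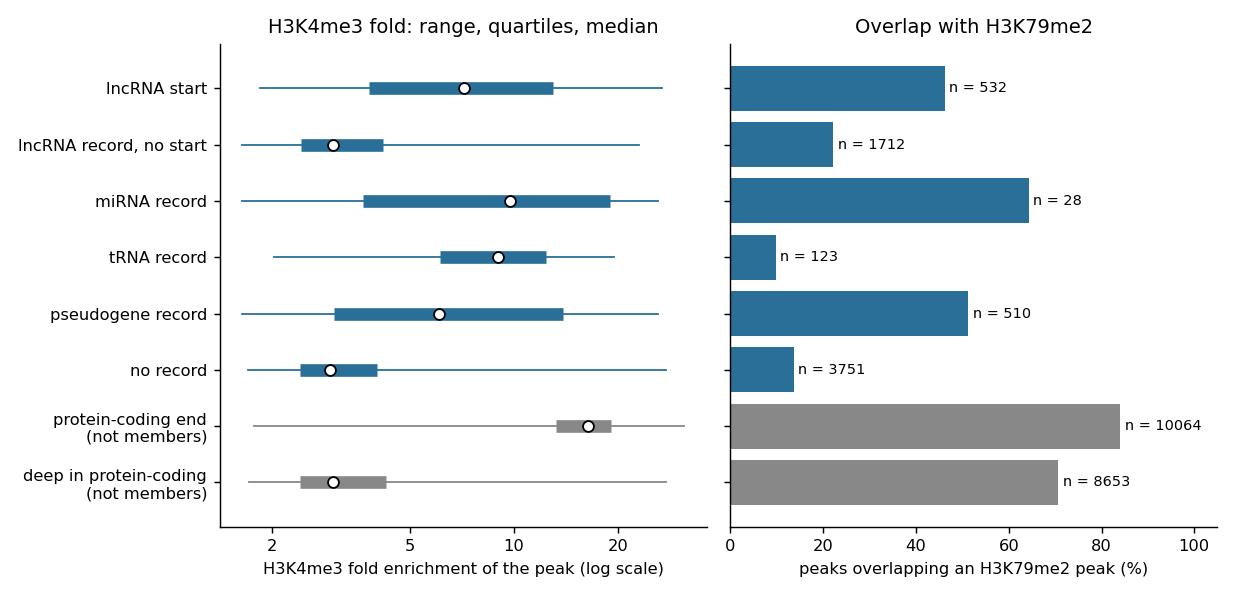
Left, H3K4me3 fold of peaks (log scale; thin line the range, bar the quartiles, point the median) by the record they lie on; right, percent overlapping H3K79me2, with the number of peaks. Members are blue and peaks at or in protein-coding records grey. Members on tRNA records have a median of 8.97-fold with 9.76% H3K79me2, and those on miRNA records 9.75-fold with 64.3%. Most of the latter also lie on records of other kinds, and 7 lie on miRNA records alone.

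H3K79me2 covered more of the transcribed side of these starts than of the other. At lncRNA starts in a member of 10-fold or more, H3K79me2 peaks covered 33.6% of the 5000 bp downstream and 24.1% of the 5000 bp upstream. Of these 267 starts, 118 had more downstream, 79 more upstream, 6 equal coverage and 64 none on either side. The 267 starts lie in 206 members, so starts that share a member are not separate loci. At the 368 starts in weaker members the coverage was 12.5% downstream and 5.55% upstream. Protein-coding starts in peaks of 10-fold or more had 74% downstream and 29.6% upstream.

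**Figure D3:**
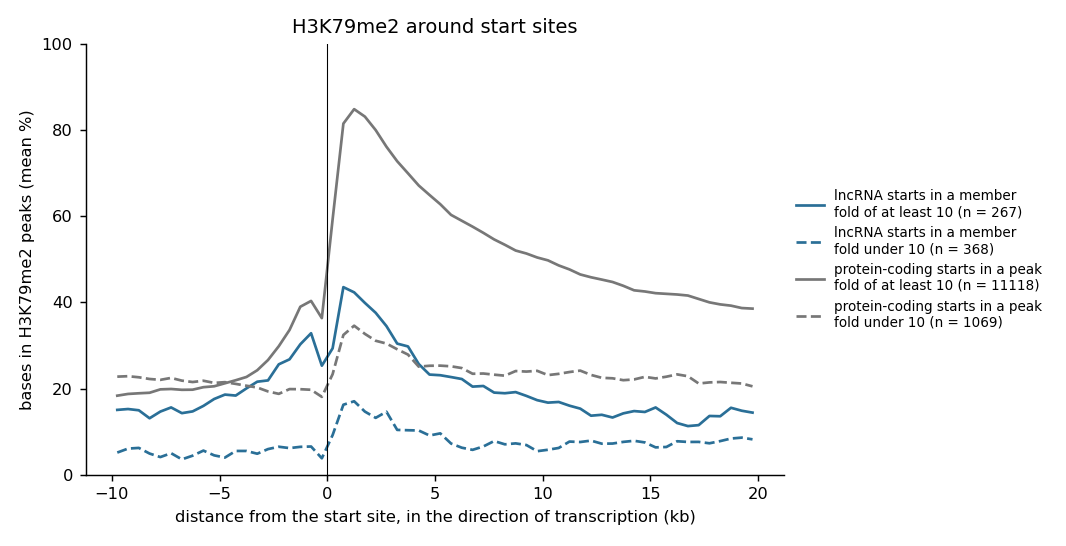
Mean percent of bases in H3K79me2 peaks in 500-bp bins (y axis) by distance from the start in the direction of transcription (x axis, kb), for lncRNA starts in members (blue) and protein-coding starts in peaks of the same limits (grey), at 10-fold or more (solid) and below (dashed). Blue and grey solid lines both dip at the start and peak just downstream, at 43.6% for lncRNA and 84.9% for protein-coding starts.

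CpG content of the starts in members lay between that of lncRNA starts with no peak and that of protein-coding starts. The median ratio of observed to expected CpG over the 300-base promoter was 0.585 at the 635 lncRNA starts in members, against 0.2 at 5672 lncRNA starts with no H3K4me3 peak and 0.842 at protein-coding starts in a peak of the same limits. Over all 33725 promoters the median was 0.581. Starts in members with H3K79me2 had 0.697 and those without it 0.466. Within classes of fold this order held at 10-fold or more alone, with 0.805 with H3K79me2 and 0.752 without it. It was the other way in the 3 lower classes, though under 3-fold the medians were nearly equal, at 0.222 over 8 starts with and 0.228 over 71 without. At 3- to under 5-fold they were 0.217 over 37 starts with and 0.347 over 102 without. At 5- to under 10-fold they were 0.454 over 73 starts with and 0.602 over 77 without. The letters TATAAA, searched on both strands, occurred in 9.76% of the members' lncRNA starts and 20.6% of lncRNA starts with no peak, against 11.6% of all 33725 promoters. The promoter of MIR205HG, with its single CpG, stood apart from the median of 24 CpG dinucleotides at starts of 10-fold or more with H3K79me2.

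**Figure D4:**
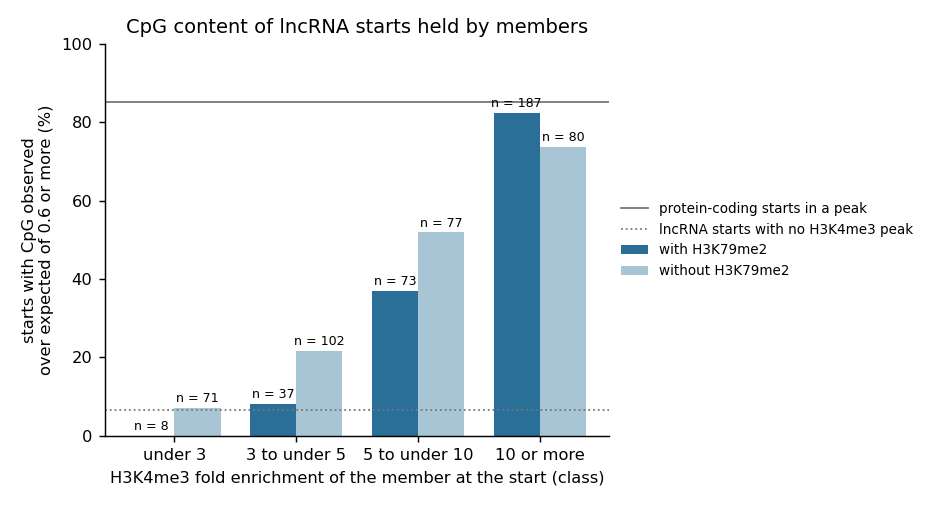
Percent of lncRNA starts in members whose 300-base promoter has an observed over expected CpG ratio of 0.6 or more (y axis) by fold class of the member (x axis), with H3K79me2 (dark) and without (light), and the number of starts. In the class of 10-fold or more the shares are 82.4% with and 73.8% without H3K79me2; the lines mark 85.1% for protein-coding starts in a peak (solid) and 6.47% for lncRNA starts with no peak (dotted).

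miRNA genes lay in 28 members (0.428%; background 0.788%), and 18 of these (64.3%) had H3K79me2. Most of the 28 also lay on a record of another kind. The 7 on miRNA records alone had a median of 4.02-fold, and 3 of them (42.9%) had H3K79me2. The member at MIR205HG and MIR205, chr1:209427466-209435246, was 7781 bp wide at 21.2-fold with a −log10 q of 129, and its H3K79me2 peak was 6264 bp long at 3.77-fold. miR-205 is known as a miRNA of basal and stratified epithelia that restrains ZEB1 and ZEB2. The nearest protein-coding gene, CAMK1G, lay 148467 bp away, and 10 further members stood within the same group, chr1:209354133-209435246. At MIR148A, encoding a miRNA abundant in milk, the member was 17.6-fold with 2317 bp of H3K79me2, and at MIR193A it was 8.24-fold with 2611 bp. MIR130B and MIR301B shared a member of 17.6-fold with 150 bp of H3K79me2, and MIR30A had one of 4.02-fold with 76 bp. MIR4634 had the highest fold of any member on a non-coding record without H3K79me2, 22.4-fold over 1203 bp, 20003 bp from the homeobox gene MSX2. Members at MIR3180-3, MIR3180-2 and MIR3180-1 on chromosome 16 reached 26.1-, 25.6- and 23-fold, but these lie in near-identical copies that also hold PKD1 pseudogenes. Reads can be shared between such copies, so which copy carries the mark is uncertain.

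Among 32 autosomal miRNA host genes in a prepared list, 8 had a member and 7 a member with H3K79me2. Of the 17 hosts far from protein-coding records 6 (35.3%) had a member, against 15.5% of all 8903 such lncRNA records. Of the 1826 autosomal lncRNA records with a member at any distance, 565 (30.9%) had a member with H3K79me2. The hosts were longer, with a median of 21200 bp against 10300 bp, and the part of length in that share was not tested. DLEU2, the host of miR-15a and miR-16, had the highest fold of any member on a non-coding record, 26.8-fold over 3845 bp at chr13:50122993-50126837, shared with DLEU1 and 68.8% covered by H3K79me2. At MIR34AHG, a p53 target, a member of 20.9-fold lay wholly within a 19979-bp H3K79me2 peak, and a second of 3.83-fold was 74.8% covered. MIR100HG, host of miR-100 and miR-125b-1, had 10 members of 1.92- to 9.68-fold, all with H3K79me2, some of them sharing an H3K79me2 peak. MIR181A1HG had 5 (1.74- to 5.62-fold), all in the same H3K79me2 peak of 83897 bp. MIR29B2CHG had 3 (1.87- to 5.46-fold), all in the same H3K79me2 peak of 63691 bp. The weakest members of these hosts had an H3K4me3 −log10 q of 0.0234 and 0.126. MIR99AHG had 5 of 2.58- to 9.21-fold, of which 2 had H3K79me2, and MIR9-3HG had 1 of 1.95-fold without it.

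By an overlap of at least 1 bp, every widely expressed lncRNA with a member had H3K79me2 at 1 or more of its members. Of 38 autosomal genes in this list 36 had an H3K4me3 peak of some kind, most of them near protein-coding genes, and 11 had a member. All 11 had a member with H3K79me2, and of 9 far from protein-coding records 8 (88.9%) had a member, with a median length of 8780 bp. The highest member per gene had a median of 9.63-fold in this list and 9.45-fold among the miRNA hosts. It was 4.98-fold in the epithelial and breast list and 7.54-fold in that of other lineages, the latter over 2 genes. These genes lay at any distance. Over the 1384 lncRNA records far from protein-coding records with a member, it was 3.97-fold, so the sets are not alike. SNHG5, a host of small nucleolar RNAs, had 21.8-fold with 82.3% of the member covered, and DANCR had 18.8-fold with 96.9%. LINC00467 had members of 18.9-fold, with H3K79me2, and 5.8-fold, without it. RN7SL2, an RNA of the signal recognition particle made by RNA polymerase III, had 13.0-fold with 20.9% covered. The NORAD member was 88.6% covered by an H3K79me2 peak of 4.62-fold. The 6 members in CYTOR (2.32- to 9.63-fold) shared 1 H3K79me2 peak of 108434 bp. LINC-PINT had 10 members (2.07- to 6.13-fold), MIR4435-2HG 9 (2.19- to 4.64-fold) and PVT1 11 (1.99- to 4.28-fold), all with H3K79me2. Members within each of these genes also shared H3K79me2 peaks, those in PVT1 overlapping peaks of 61255 and 94216 bp. In CASC15, 2 of 7 members (2.39- to 4.85-fold) had it, each over only 150 bp. In NEAT1, an architectural RNA of paraspeckles, the member was 1.86-fold and wholly covered, but its H3K4me3 −log10 q was only 0.0239.

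**Figure D5:**
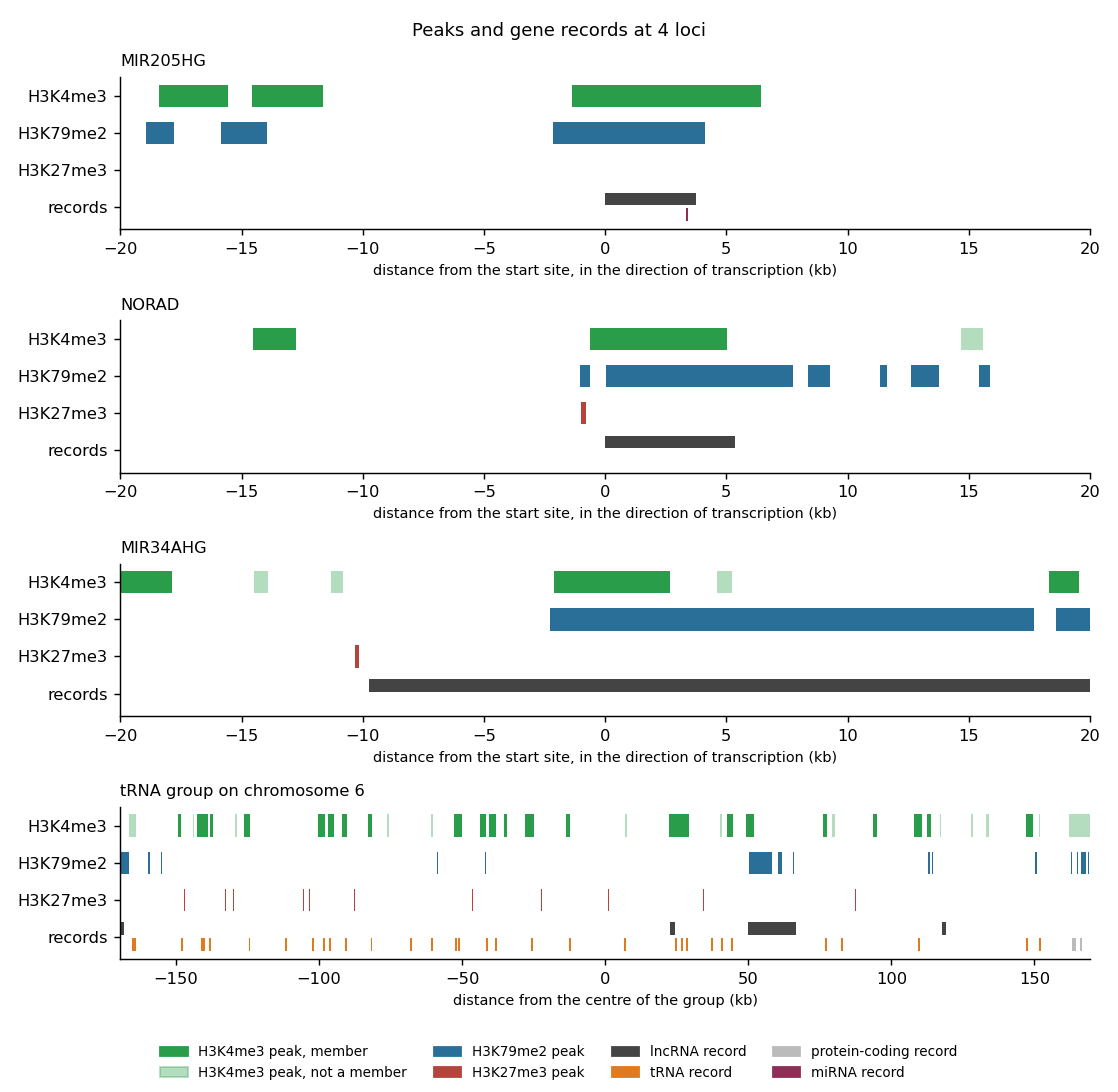
Peaks of 3 marks and gene records at MIR205HG, NORAD and MIR34AHG (x axis, kb from the start in the direction of transcription) and at the tRNA group of 22 members on chromosome 6 (kb from its centre). Dark green peaks are members. The members over the 3 lncRNA starts share bases with H3K79me2 peaks, and in the tRNA group 3 of 22 members do.

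Genes described in breast or other epithelia were more mixed. Of 30 autosomal genes in that list, 15 had a member and 8 a member with H3K79me2, CYTOR counting here as well as among the widely expressed genes, and of 24 far from protein-coding records 14 (58.3%) had a member, with a median length of 14200 bp. All 9 members in LINC00673 had H3K79me2 from a single peak of 185664 bp at 4.77-fold, the longest over any member. The strongest of them, chr17:72585836-72593081, was 19.6-fold, and the other members in it were 1.88- to 4.28-fold. LINC00472 had 17.0-fold, LINC00941 15.4-fold, LINC00707 13.5-fold and LINC02454 12.8-fold as their highest, all with H3K79me2, as had LINC00511 (2.59-fold) and LASTR (3.02-fold). H3K79me2 was absent from the members in PRECSIT (5.6-fold), SOX2-OT (up to 4.98-fold), LINC00885 (3.81-fold), LINC01605 (up to 3.01-fold), LINC01615 (2.76-fold), LINC00578 (up to 2.63-fold) and LINC00589 (2.41-fold). Of 30 lncRNAs of other lineages 12 had an H3K4me3 peak of some kind and 2 had a member: MIAT, known from brain and heart, with 10.5-fold and H3K79me2, and LINC01554 with 4.58-fold and none. Far from protein-coding records this was 2 of 18 (11.1%), beside the 15.5% of all such lncRNA records. In the epithelial list 22 of the 30 had an H3K4me3 peak of some kind, and 23 of the 32 miRNA hosts did. Of all 8903 lncRNA records far from protein-coding records, 2934 (33%) had one, whereas these list counts take genes at any distance.

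tRNA genes gave strong members with little H3K79me2. They lay in 123 members (1.88%; background 0.718%) with a median of 8.97-fold, and 50 of these reached 10-fold. H3K79me2 overlapped 12 of the 123 (9.76%), and 5 (4.07%) over at least 500 bp. At 10-fold or more it overlapped 8 of 50 (16%), against 64.1% of 329 members on lncRNA records. The order was the same within a class of width: at 10-fold or more and 1500 to under 3000 bp, 4 of 32 tRNA members (12.5%) had it, against 49.4% of all members of that kind. With a q of 0.05 or below asked of H3K79me2, 2 tRNA members kept it. Of 311 tRNA records far from protein-coding genes, 180 (57.9%) lay in a member, and 4 (1.29%) touched an H3K79me2 peak themselves, but a tRNA record spans a median of 73 bp and is a small target.

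The strongest tRNA members without H3K79me2 were at TRP-AGG2-4 and TRP-TGG2-1 on chromosome 11 (19.5-fold) and at TRT-CGT5-1 on chromosome 6 (19.1-fold), both named from the 5 highest folds of their class. Those with H3K79me2 included TRV-CAC1-1 (17.8-fold, 647 bp of H3K79me2), TRI-TAT2-2 within LINC00240 (16.3-fold, 2781 bp) and TRT-CGT4-1 (15.9-fold, 887 bp). A tRNA record lay a median of 487 bp from the centre of its peak, and 33 members held 2 or more, up to 5. Chromosome 6 carried 69 of the 123 (56.1%), with a median of 8.97-fold like the other 54. H3K79me2 overlapped 6 of those on chromosome 6 and 6 elsewhere. The share of all tRNA records that lies on chromosome 6 was not determined, so no enrichment there is meant. tRNA genes occur in near-identical copies, so the split of reads among them is uncertain.

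Chromosome 6 gave 2 of the 3 largest groups. Joining members less than 50000 bp apart gave 4138 groups, of which 2920 were single members and 20 had 10 or more. The group at chr6:27494742-27793660, between ZNF184 and the histone gene H2BC13, held 22 members with a median of 9.22-fold, 16 on tRNA records and 3 with H3K79me2. The group at chr6:28643115-28882347 held 19, 18 of them on tRNA records, with a median of 8.35-fold and 0 with H3K79me2. On chromosome 17, 43238144 to 43469901, a group of 22 members held 11 with H3K79me2. Its records include RNU2-4P, related to the spliceosomal U2 RNA, as well as LINC00910 and MIR2117HG. Reads can be shared among repeats here, and which of the 22 members lie in repeats was not determined. All 14 members of the next group lay in SLC38A4-AS1 (11 with H3K79me2, median 3.33-fold). It was followed by 3 groups of 13 members each. The group from RN7SL2 to LINC01588 on chromosome 14 had 11 on lncRNA records and 6 with H3K79me2 (median 4.09-fold). That on chromosome 20 at LINC01270 and LINC01271 had 3 and 6 (3.56-fold), and that on chromosome 12 at LINC02454 and RPSAP52 had 4 and 4 (2.52-fold).

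Other small RNA genes were few. Members on snRNA records numbered 39, with a median of 7.87-fold and 18 (46.2%) with H3K79me2. Part of them lie in repeated copies, such as RNVU1-19 and RNVU1-15, where the split of reads is uncertain. The 11 on snoRNA records had a median of 11.9-fold and 8 with H3K79me2, the highest SNHG11 with SNORA71E at 23.4-fold. The 4 on Y RNA records, small RNAs of Ro particles, were all at 10.1-fold or more, and 2 had H3K79me2. The 2 on vault RNA records (6- and 7.99-fold) had none. RENO1, an lncRNA described in neural differentiation of mouse cells, had 24.8-fold with 75.6% of the member covered by H3K79me2.

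Pseudogene records lay under 510 members (7.8%; background 3.24%), and these carried H3K79me2 more often than members on any other large kind. Of the 510, 261 (51.2%) had it, at a median H3K4me3 of 6.08-fold, and among 186 of 10-fold or more 151 (81.2%) did. The 320 on transcribed pseudogenes had 63.4%, and the 209 on other pseudogenes 34.4%. With q of 0.05 or below asked of H3K79me2, 145 (28.4%) kept it. LOC124904397 had 25.6-fold with 92.9% of the member covered, and BTN2A3P, a butyrophilin pseudogene near BTN3A1, had 23.8-fold with 40.9%. Pseudogenes resemble their parent genes, and the treatment of multiply placed reads is not known here, so these values may include reads of the parents or of other copies.

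No record of any kind lay under 3751 members, 57.4% of all. Their median was 2.94-fold, 207 reached 10-fold and 512 (13.6%) had H3K79me2. At 10-fold or more the share was 38.2%, and with at least 3000 bp as well it was 35 of 40 (87.5%). The median length of their H3K79me2 peaks was 718.5 bp. The nearest record of any kind lay a median of 16880 bp away, and within 5000 bp for 742 of them (19.8%). The strongest with H3K79me2 were chr20:43656688-43659098, 27.6-fold, the highest fold of all members and 8015 bp from MYBL2, then chr22:41411999-41415929, 25.3-fold near TEF, and chr14:101946378-101950163, 23.6-fold near DYNC1H1. MYBL2 is a cell cycle transcription factor, TEF a circadian one, and DYNC1H1 encodes the dynein heavy chain. The strongest without it were chr1:61049777-61051731, 25.2-fold and 25495 bp from NFIA, chr1:226121144-226123205 (22.7-fold, near ACBD3), chr17:60119239-60120811 (22.5-fold, near CA4), chr16:47037363-47038500 (22.4-fold, near NETO2) and chr12:25385167-25387938 (21.9-fold, near LMNTD1). On a record without H3K79me2, LOC107987129 near the homeobox gene LMX1B reached 22.3-fold.

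Members farther from protein-coding genes were weaker and less often overlapped by H3K79me2. At 5000 to under 10000 bp 24.4% had H3K79me2 and 16.2% reached 10-fold, and at 500000 bp or more 11.3% and 3.38% did. Among members of 10-fold or more the share with H3K79me2 showed no such order: 55.6%, 56.8%, 49.1%, 63.8% and 50% in 5 classes of rising distance, the last over 12 members. The 5 farthest members lay on chromosome 22 between 10628219 and 11901784, 3626407 to 4897561 bp from OR11H1, at 2.59- to 6.12-fold. Of these, the members on FRG1FP (6.12-fold) and LOC102723769 (3.65-fold) had H3K79me2. FRG1FP is a transcribed pseudogene, and whether reads in this stretch were placed uniquely is not known. By chromosome, members made up from 7.17% of peaks of the same limits on chromosome 19 to 40.6% on chromosome 21. H3K27me3 peaks covered a mean of 1.25% of the 10000 bp on each side of the members, as the rule favours, and H3K79me2 peaks 6.82%. At protein-coding ends the means were 1.18% and 33.4%. The H3K27me3 calls are narrow peaks and those of the other marks broad peaks. Low coverage by H3K27me3 peaks therefore does not show how much Polycomb-marked chromatin lies there.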

How the data were processed

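The deposited files are peak lists of 3 ChIP-seq libraries of MCF10A cells. The tools were Bowtie2 2.3.1 and MACS2 2.1.1, with the build hg38, per the submitters' processing notes. The authors deposited 1 list per library, of broad peaks for H3K4me3 and H3K79me2 and of narrow peaks for H3K27me3. Fold enrichment is the authors' ratio over the caller's background, and the deposited −log10 p-value and −log10 q-value of each peak are the caller's own. Peak names in the deposited lists carry a p threshold of 0.05. The control, the treatment of duplicates and of multiply placed reads are not given in the sources used here. Depth is unknown, so no interval or detection floor was computed for a peak's values.

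Gene records came from the RefSeq table of GRCh38.p14, the same build, and promoter and miRNA sequences from its companion tables. Overlap needed 1 bp. Interval counting was checked against a direct count on simulated data (Python 3.11.15, numpy 2.4.6, pandas 2.3.3, matplotlib 3.10.9). No significance test was run, since each mark has 1 library. Members and gene lists were chosen with earlier results of these data known. Peaks named were the 5 highest folds in each of the 4 classes, the 5 farthest from protein-coding records, the 5 with the longest H3K79me2 peak, the 5 largest groups with ties, those next to each limit and all listed genes with a member. The miRNA, tRNA, snoRNA and small RNA examples and the printed promoters were chosen after their values were seen. Alternatives varied the distance, width, H3K27me3, q, fold and overlap limits and the records counted as non-coding.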

Additional observations from a re-analysis of the deposited data

How the results depend on the processing

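The higher share with H3K79me2 on non-coding records than off them held in 19 of 19 alternatives, the ratio of the shares being 1.65 as reported and 1.27 to 3.26 among them. Within fold and width classes the order did not always hold: at 10-fold or more and at least 3000 bp it was 85.9% on records and 92.5% off them. The levels themselves moved with the limits. They are given as the share on records, then off records. A move means a share outside the 95% Wilson binomial interval of the reported one, or a count off by over 1.5 times. The intervals were 25.7 to 29.3% on records and 15.6 to 17.9% off them. They take members as independent, but neighbouring members can share an H3K79me2 peak. The intervals are therefore too narrow as errors and serve only to label moves. A width of at least 500 bp gave 13976 members, 4555 on records and shares of 17.9% and 9.68%, and at least 2000 bp gave 1827 members, 838 on records, 836 with H3K79me2 and 52.5% and 40%. For H3K4me3, q of 0.05 or below gave 32.2% and 20.4%. A −log10 q of at least 5 gave 2150 members, 996 on records, 803 with H3K79me2 and 43.6% and 32%. A fold of at least 5 gave 1562, 769 and 664, and 47.6% and 37.6%. For H3K79me2, q of 0.05 or below left 456 members with the mark (10.8% and 4.72%), −log10 q of at least 5 left 87 (2.37% and 0.726%), 500 bp of overlap 857 (19.6% and 9.32%) and 50% of the peak 508 (12.6% and 4.94%). Counting only the 1229 members within 1000 bp of an end of a non-coding record gave 34.5% on records. Asking the record to span 50% of the peak gave 18% off records, as a distance of 20000 bp gave 15.1%. Counting pseudogenes as non-coding gave 30.1% and 13.6%, and keeping 5000 bp from pseudogenes too gave 25.4% and 12.9%. These shifts follow from which peaks each limit keeps; no cause beyond that was tested. No paired analysis was possible because each mark has 1 library. Weak peaks near the caller's threshold limit all counts.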

Other observations

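Some peaks far from protein-coding records fell outside the limits. The 24 peaks of 8000 bp or wider all overlapped H3K79me2, and 19 lay on a non-coding record, at a median of 10.9-fold. They included LINC-PINT with LINC00513 (19655 bp, 7.26-fold), DLEU1 with DLEU2 (17441 bp, 10.6-fold), MIR31HG (13624 bp, 8.26-fold), MALAT1 (13230 bp, 18.9-fold), a nuclear speckle RNA, MIRLET7A1HG (11343 bp, 12.6-fold), host of let-7 miRNAs, and CHASERR (10721 bp, 15.6-fold), a regulator of the neighbouring CHD2 gene. The 81 peaks with 500 bp or more of H3K27me3 had a median of 5.81-fold, and 10 of them (12.3%) overlapped H3K79me2. On chromosome X, 190 peaks met the same limits, with a median of 3.39-fold and 42 (22.1%) with H3K79me2. A further 15899 autosomal peaks at the same distance were narrower than 1000 bp.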
